A study of Mus musculus with 28 samples.

Results

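The 8 genes described here are Lin28a, Lin28b, Trim71, Igf2bp1, Igf2bp2, Igf2bp3, Hmga1 and Hmga2, which are often grouped as oncofetal genes because they are high in embryonic tissue, low in most adult tissue and high again in many tumours. They were taken by name from a table of raw read counts that holds 41605 genes, and all 8 were found. RNA was measured by bulk poly-A sequencing of peripheral nerve from wild-type C57BL/6J mice that had not been perfused, with 4 libraries at each of 7 stages: embryonic days (E) 13 and 17 (labels shortened from E13.5 and E17.5 in the design text) and postnatal days (P) 1, 5, 14, 24 and 60. Each E13 library pooled several kinds of nerve, cut distal to the dorsal root ganglia, from 2 embryos, although its label names sciatic nerve. Each E17 library pooled the sciatic nerves of 2 embryos, and each postnatal library came from the sciatic nerves of 1 mouse. From E17 on the outer sheaths (epineurium and perineurium) had been pulled off to enrich for the endoneurium, the compartment of axons and Schwann cells, and this was not done at E13. Both sexes were used at each stage, and the sex of single libraries was not used. Where E13 is compared with a later stage, age, kind of nerve and dissection differ together and cannot be told apart.

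LIN28A and LIN28B are RNA-binding proteins that block the processing of let-7 precursors, so that mature let-7 microRNAs stay low in early embryonic cells. Mature let-7, which rises as tissues differentiate, binds the 3′ untranslated regions (UTRs) of many growth-related messages and lowers them, among them those of Lin28a, Lin28b, Trim71, Igf2bp1 and Hmga2, and LIN28 and let-7 thus hold each other down. TRIM71 is an RNA-binding ubiquitin ligase of early embryos, the IGF2BP proteins bind messenger RNAs such as that of insulin-like growth factor 2 and alter their stability, location and translation, and the HMGA proteins are small chromatin proteins that bind AT-rich DNA through AT-hooks.

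The mature let-7 sequences are shown because their seed, bases 2 to 8, is what a target site pairs with. Of 13 mature mouse sequences of the family in RefSeq (GRCm38.p6), 12 shared 1 seed, given in capitals in these 5 examples.
mmu-let-7a-5p: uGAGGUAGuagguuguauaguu
mmu-let-7d-5p: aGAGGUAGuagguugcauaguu
mmu-let-7g-5p: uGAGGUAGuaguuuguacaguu
mmu-let-7i-5p: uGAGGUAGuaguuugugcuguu
mmu-miR-98-5p: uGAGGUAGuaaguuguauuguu
The exception was let-7j, shown for its altered last seed base.
mmu-let-7j: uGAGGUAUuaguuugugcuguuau

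The letters that pair with the shared seed, CTACCTC, were searched on the sense strand of the longest annotated 3′ UTR of each gene (GENCODE M21, build GRCm38). All 8 genes held at least 1 match, against 9.02% of 21021 genes with an annotated 3′ UTR. Hmga2, Lin28b, Trim71 and Igf2bp1 held 4 matches each, a number reached or passed by few others, since 0.152% of genes had 3 or more. Lin28a held 2 and Hmga1, Igf2bp2 and Igf2bp3 held 1 each. Longer UTRs hold more matches by their length alone: among the 2804 genes with a 3′ UTR of at least 3000 nt, 25.2% had 1 or more and 0.856% had 3 or more. The matches are a description of these letters and not of measured binding, and let-7 control is part of what the group is known for. The first match of each gene and the close second pair of Trim71 are shown to compare their surroundings, each as 25 bases of the transcript's strand with the match in capitals.
Lin28a, the first match, chr4:134005187-134005211, minus strand: gcacagcctgttgaaCTACCTCatt
Lin28b, the first match, chr10:45381020-45381044, minus strand: acccgggcgggaagtCTACCTCatg
Trim71, the first match, chr9:114512470-114512494, minus strand: aacattgcctaagtcCTACCTCagc
Trim71, the third match, chr9:114509045-114509069, minus strand: tttagtatggattttCTACCTCaat
Trim71, the fourth match, chr9:114509019-114509043, minus strand: ttggcaaaaagttgtCTACCTCacg
Igf2bp1, the first match, chr11:95961776-95961800, minus strand: gctgtgcgaagtaaaCTACCTCaag
Igf2bp2, the first match, chr16:22059471-22059495, minus strand: acacacaaataaaagCTACCTCagg
Igf2bp3, the first match, chr6:49086785-49086809, minus strand: tgcatttttactcaaCTACCTCagg
Hmga1, the first match, chr17:27563277-27563301, plus strand: tcctctgttcacaaaCTACCTCtgg
Hmga2, the first match, chr10:120364222-120364246, minus strand: gccgacattcaatttCTACCTCagc
An A follows the match, the base that lies opposite the first base of the microRNA, in each of these except that of Hmga1. Over all 21 matches of the 8 genes 13 were followed by an A, and the 8 that were not include the 3 later matches of Lin28b and of Hmga2. The 2 later Trim71 matches begin 3591 and 3617 nt after the stop codon. In Lin28b and Hmga2 the first match begins 36 and 58 nt after the stop codon, and in Igf2bp1 it begins at 1715 nt of a 3′ UTR of 6337 nt, the longest of the 8.

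**Figure D1:**
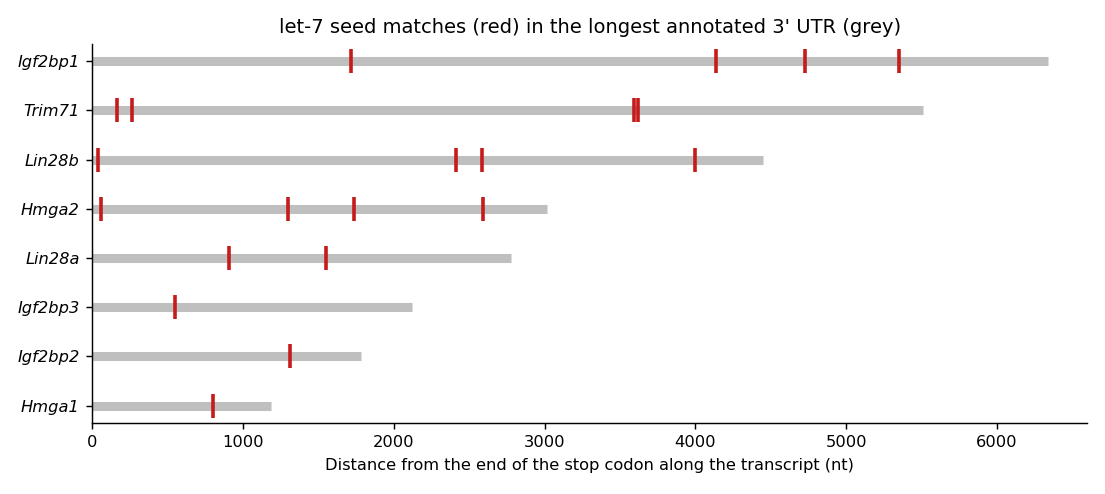
Positions of the let-7 seed match in the longest annotated 3′ UTR of each gene, as the distance in nt from the stop codon along the spliced transcript (x axis), with 1 gene per line, UTRs in grey and matches in red. Hmga2, Lin28b, Trim71 and Igf2bp1 carry 4 matches each, Lin28a 2 and the others 1.

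Gene positions are those of GRCm38. Levels are CPM, which puts counts on a shared depth with TMM factors, given as mean ± SD (n = 4 libraries at each stage) unless they are named as RPKM, which divides CPM by the exon length in kilobases and is used wherever different genes are compared. Changes are log2 fold changes ± SE, later stage minus earlier, from an edgeR quasi-likelihood fit over 17700 genes. A gene was called at an adjusted p under 0.05 and a fold of at least 2. Total counts ran from 13899895 to 37662780 per library. In bulk RNA, fewer cells of a type and less RNA per cell cannot be told apart. The 6 Schwann lineage markers summed to 443.0 ± 132 CPM at E13 and to between 2545 and 4856 CPM on average from E17 on, and 7 markers of neuronal cell bodies summed to 1981 ± 527 CPM at E13 against 17.7 to 53.8 CPM on average later. In 2 E13 libraries counts moved with the GC content of the transcript, with slopes of -1.01 (replicate 1) and 0.79 (replicate 4) log2 per 10 percentage points of GC, against 0.08 and 0.13 in the other E13 libraries.

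Lin28a (ENSMUSG00000050966, chr4:134003330-134018841, minus strand) was read almost only at E13. Its raw counts in the E13 libraries were 17, 34, 48 and 39, which is 1.43 ± 0.641 CPM. At E17 the counts were 0, 1, 0 and 0, and all 20 postnatal libraries held 0 counts. The E13 libraries thus did not overlap with any others. Pooled over libraries, 138 counts at E13 against 1 at E17 give a ratio of 107 (95% counting interval 18.9 to 4256), and the fitted change was -6.28 ± 0.88 (adjusted p 5.6e-05), which rests on that single count: without E17 replicate 2 it was -8.01. A pooled count of 0 allows up to 0.0270 CPM at P1 and 0.0504 CPM at P60, from 3 counts over the 4 libraries of a stage and for counting error only.

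Lin28b (ENSMUSG00000063804, chr10:45376620-45486395, minus strand) had the higher mean of the paralogs at E13, at 0.83 ± 0.643 RPKM against 0.358 ± 0.161 RPKM for Lin28a, but in replicate 4 Lin28a was the higher (0.514 against 0.244 RPKM). Its E13 counts were 478, 146, 170 and 42 (15.8, 5.90, 6.14 and 2.21 CPM), with replicate 1 highest and replicate 4 lowest. These are the 2 libraries with the opposite GC slopes, and the Lin28b transcripts have a GC content of 42.5%. At E17 the counts were 1, 6, 3 and 4, and no later library had more than 4. The stages E13 and E17 did not overlap, at 7.52 ± 5.83 and 0.185 ± 0.120 CPM (change -5.35 ± 0.65, adjusted p 1.7e-07). With the GC trend removed the change was -5.10, and without E13 replicate 1 it was -4.69. From E17 to P60 the level went from 14 pooled counts to 1, a ratio of 10.6 (95% counting interval 1.61 to 447) with an adjusted p of 0.053, so a further fall after E17 was not called. This lies at the threshold: of 10 other ways of fitting in which Lin28b was tested, 7 called it lower, with adjusted p-values of 0.0136 to 0.0659 over the 10. With 1 library left out at a time, 2 of 8 fits called it lower (adjusted p-values 0.0398 to 0.131). From E17 to P1, with 14 and 3 pooled counts, the change of -2.51 ± 1.06 (adjusted p 0.077) was not called either, and 5 of those 10 fits called it (adjusted p-values 0.0031 to 0.111). With 1 library left out at a time, 0 of 8 fits called this step (adjusted p-values 0.0523 to 0.2105).

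Trim71 (ENSMUSG00000079259, chr9:114507133-114564369, minus strand) was at 2.28 ± 1.05 CPM at E13 (counts 74, 55, 97 and 18) and at 0.360 ± 0.116 CPM at E17 (counts 8, 8, 10 and 3), a change of -2.64 ± 0.56 (adjusted p 2.8e-04). It fell again to P1, where 6 counts were left over 4 libraries (2, 0, 1 and 3; change -2.65 ± 0.76, adjusted p 0.0097, pooled ratio 6.81 with a counting interval of 2.78 to 20.1). At P24 all libraries held 0 counts, and at P60 they held 1, 1, 4 and 1. This counted as a rise (adjusted p 0.0461, at least 3.09-fold against 3 pooled counts), but it lost its call when any 1 of the 8 libraries was left out, with adjusted p-values of 0.0544 to 0.172. C130032M10Rik, on the opposite strand of the Trim71 locus, had 20 counts at P60, 4 at P24 and 0 from E13 to P5, and whether counting used the strand is not stated.

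Lin28a and Lin28b entered the test only because their E13 libraries passed the filter on low counts, and Trim71 only through its E13 and E17 libraries, so these genes had to differ between stages. From E13 to E17 these 3 and Hmga1 were called lower, among 21.2% of all genes tested, and Igf2bp2 was called higher, among 14.2%.

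**Figure D2:**
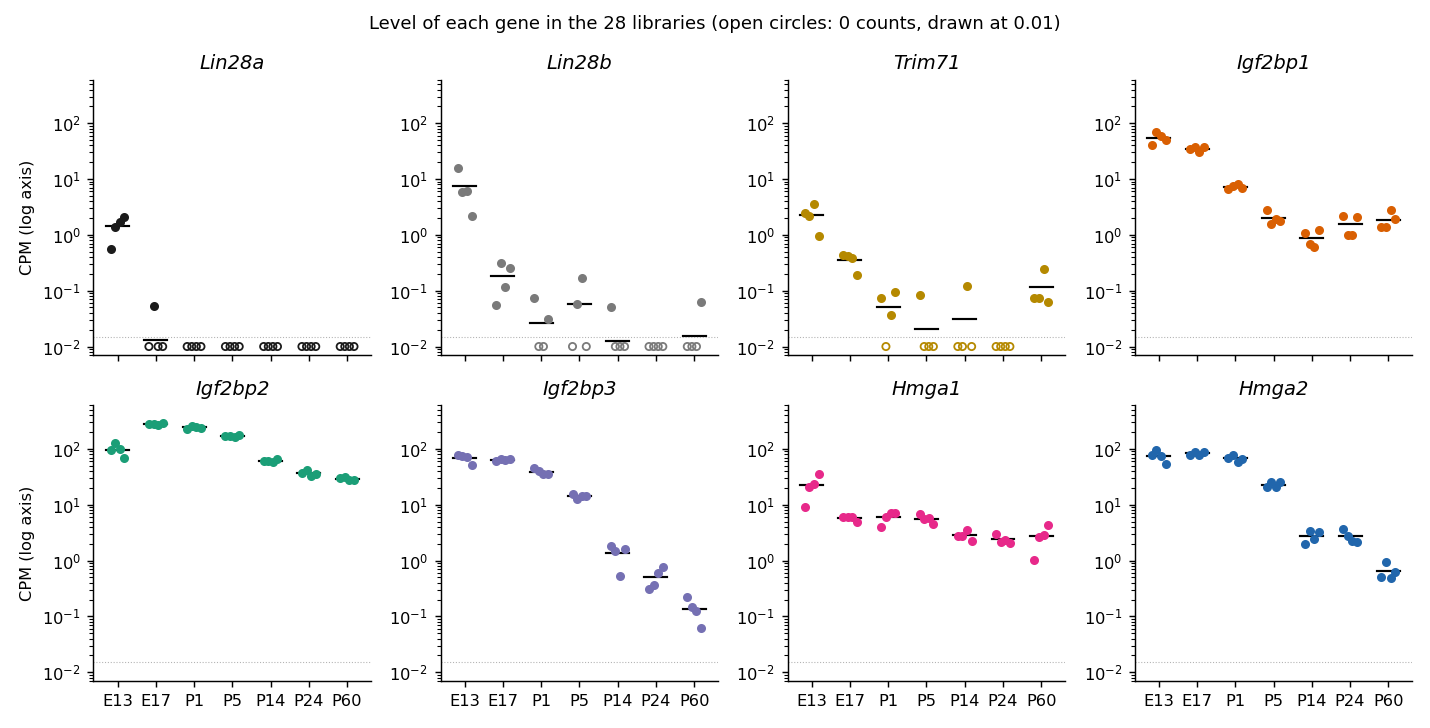
CPM on a log axis (y) of each of the 8 genes in the 28 libraries by stage (x), with 1 point per library, horizontal lines for stage means, and open circles at 0.01 for libraries with 0 counts. Lin28a, Lin28b and Trim71 are nearly confined to E13 and E17, while the Igf2bp and Hmga genes have counts in all 28 libraries.

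The 3 Igf2bp paralogs were all lower in the adult than at E17, by different routes. Igf2bp1 fell first, Igf2bp3 fell furthest, and Igf2bp2 was highest at E17 and kept the largest adult level. Between E17 and P60 all 3 were called lower, as were Hmga1 and Hmga2, in a comparison that called 17.5% of genes lower and 22.2% higher.

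Igf2bp1 (ENSMUSG00000013415, chr11:95957163-96005940, minus strand) was at 40.2, 69.3, 59.4 and 50.4 CPM in the E13 libraries and at 35.1, 36.8, 30.7 and 36.9 CPM at E17. The libraries of these stages did not overlap, but the difference of -0.65 ± 0.22 (adjusted p 0.011) was below the 2-fold minimum. At P1 the 4 libraries held 6.67, 7.41, 8.24 and 7.01 CPM. This fall of 2.25 ± 0.23 on the log2 scale between E17 and birth (adjusted p 1.4e-08) was called with that of Trim71, among 5.41% of genes lower. The level then fell to 2.02 ± 0.559 CPM at P5 (-1.86 ± 0.24, adjusted p 2.5e-06) and to 0.895 ± 0.295 CPM at P14 (-1.15 ± 0.28, adjusted p 0.0028). The last step was under 2-fold without P5 replicate 1 (-0.95) and without P14 replicate 3 (-0.99). The means after P14 were higher, at 1.57 ± 0.675 CPM at P24 and 1.88 ± 0.668 CPM at P60, but the libraries overlapped and neither step passed the test (0.79 ± 0.30, adjusted p 0.15, and 0.28 ± 0.29, adjusted p 0.59). At P60, 5.39% of the E17 level was left (change -4.20 ± 0.27, adjusted p 1.2e-13).

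Igf2bp2 (ENSMUSG00000033581, chr16:22059009-22163299, minus strand) went the other way first. It was at 93.9, 127, 100.46 and 68.0 CPM at E13 and at 283, 282, 268 and 289 CPM at E17, a rise of 1.53 ± 0.12 (2.88-fold, adjusted p 1.4e-11). No other of the 8 genes was called higher between these stages. After this peak the mean was 245 ± 11.02 CPM at birth (P1) and 168 ± 5.53 CPM at P5. The P14 libraries averaged 61.7 ± 2.91 CPM, those of P24 36.5 ± 3.65 CPM and those of P60 29.4 ± 1.86 CPM. No 2 neighbours in the order of its 7 stage means had overlapping libraries, but the steps from E17 to P1 (-0.20 ± 0.12, adjusted p 0.21) and from P24 to P60 (-0.31 ± 0.12, adjusted p 0.075) did not pass the test. Under alternatives their adjusted p-values went down to 0.0048 and 0.00071, always under 2-fold. The step from P5 to P14 was the only adjacent one after E17 that passed 2-fold (-1.45 ± 0.12, adjusted p 4.1e-10). From E17 to P60 it fell by 3.26 ± 0.13 on the log2 scale (adjusted p 4.3e-18), to 10.5% of its peak.

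Igf2bp3 (ENSMUSG00000029814, chr6:49085223-49214957, minus strand) was at 78.5, 73.7, 71.2 and 52.2 CPM at E13 and at 61.0, 66.4, 63.0 and 65.1 CPM at E17, which overlap (change -0.11 ± 0.18, adjusted p 0.61). It went to 39.4 ± 5.20 CPM at P1 (-0.70 ± 0.18, adjusted p 0.0040, under 2-fold). It fell to 14.2 ± 1.12 CPM at P5 (-1.47 ± 0.18, adjusted p 1.4e-06), when Igf2bp1 and Hmga2 were also called lower in a step that called 1.79% of genes lower. From P5 to P14 it fell by 3.40 ± 0.22 on the log2 scale to 1.36 ± 0.565 CPM (adjusted p 6.3e-12). It fell again to 0.507 ± 0.203 CPM at P24 (-1.31 ± 0.29, adjusted p 0.0054), as the only one of the 8 genes called in a step with 1.14% of genes called lower, and the P14 and P24 libraries overlapped because P14 replicate 3 was at 0.531 CPM. At P60 the raw counts were 3, 2, 2 and 1, or 0.138 ± 0.0646 CPM (-1.95 ± 0.48 from P24, adjusted p 0.0056). In fits of the compared stages alone neither late step was called: from P14 to P24 the adjusted p was 0.058, and from P24 to P60 Igf2bp3 had too few counts to be tested. The pooled counts of 5027 at E17 and 8 at P60 give a ratio of 474 (95% counting interval 240.5 to 1099), and the fitted change was -8.83 ± 0.32 (adjusted p 7.9e-19), the largest of the 8 genes over this span. Malsu1 overlaps Igf2bp3 on the opposite strand, and it was between 5.77 and 9.91 CPM on average at every stage.

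The makeup of the family changed with its level. Per length, the 3 paralogs summed to 27.2 ± 5.18 RPKM in the E13 libraries and to a maximum of 49.4 ± 1.58 RPKM in those of E17. The sum was 24.7 ± 0.755 RPKM at P5, 8.59 ± 0.465 RPKM at P14 and 4.18 ± 0.199 RPKM in the adult nerve at P60. At E13 Igf2bp2 supplied 47.8 ± 2.95% of the sum, Igf2bp3 31.2 ± 3.82% and Igf2bp1 20.96 ± 3.87%. At E17 the share of Igf2bp2 was 76.8 ± 0.552%, at P5 92.1 ± 0.772% and at P14 97.0 ± 1.01%. Igf2bp1 had its lowest share at P5 (0.846 ± 0.231%) and was at 4.69 ± 1.84% at P60, above the 0.401 ± 0.181% of Igf2bp3. Ratios within a library were compared for neighbouring stages by an exact permutation test (two-sided, 4 libraries each), which cannot give a p below 0.0286, and 16 such tests were made in all. The log2 ratio of Igf2bp2 to Igf2bp3 was higher at E17 than at E13, at P1 than at E17, at P5 than at P1 and at P14 than at P5 (each exact p 0.0286, adjusted 0.0416). It went from 0.62 ± 0.22 at E13 to 5.76 ± 0.75 at P14. The log2 ratio of Igf2bp1 to Igf2bp3 was lower at P1 than at E17 by 1.54 (from -1.12 ± 0.11 to -2.66 ± 0.29) and then higher at P14 than at P5 by 2.33 and at P24 than at P14 by 2.06 (each exact p 0.0286, adjusted 0.0416). From P24 on Igf2bp1 therefore stood above Igf2bp3, with a log2 ratio of 1.31 ± 0.81 at P24, while Igf2bp3 stood above Igf2bp1 in each library from E13 to P14.

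**Figure D3:**
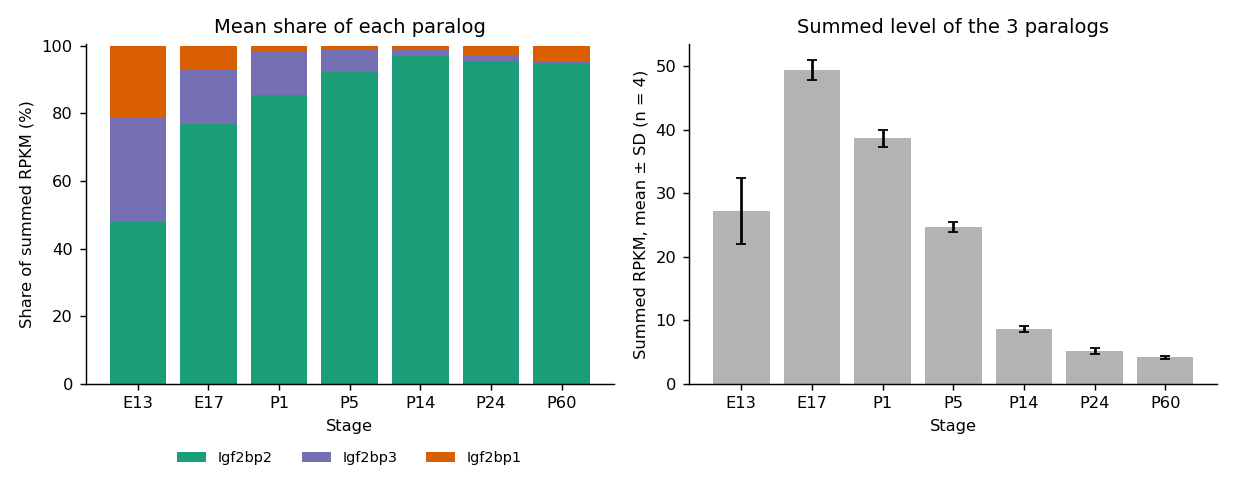
Left, the mean share in percent of each Igf2bp paralog in the summed RPKM of the 3 genes by stage; right, the summed RPKM as mean ± SD (n = 4 libraries per stage). The share of Igf2bp2 goes from 47.8% at E13 to 97.0% at P14 while the sum goes from a peak of 49.4 RPKM at E17 to 4.18 RPKM at P60.

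The Hmga genes parted in time. Hmga1 fell most between E13 and E17, and from E17 to P60 it went to 47.8% of its E17 level. Hmga2 was not called lower until P5, and from E17 to P60 it went to 0.774%.

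Hmga1 (ENSMUSG00000046711, chr17:27556497-27563674, plus strand) was at 9.14, 21.04, 23.7 and 35.3 CPM at E13, with the lowest value in replicate 1 and the highest in replicate 4, where Lin28b had its highest and its lowest, and its transcripts have a GC content of 62.3%. At E17 it was at 5.99, 5.92, 5.94 and 4.96 CPM, below all E13 libraries (-1.96 ± 0.31, adjusted p 4.1e-06, and -1.82 with the GC trend removed). The means at P1 and P5 were 6.12 ± 1.55 and 5.66 ± 0.871 CPM, with overlapping libraries. From P5 to P14 it went to 2.82 ± 0.504 CPM, a change of -1.001 ± 0.32 (adjusted p 0.017) that lies on the 2-fold minimum and fell under it without any of 5 of the 8 libraries. At P60 the libraries ranged from 1.02 to 4.33 CPM. The change from E17 to P60 was -1.06 ± 0.33 (adjusted p 0.0063), and without P60 replicate 1 it was -0.79. AI413582 overlaps Hmga1 on the opposite strand and was at 3.22 CPM at E17 and 15.2 CPM at P60, and the near copy Hmga1b had at most 12 pooled counts at any stage.

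Hmga2 (ENSMUSG00000056758, chr10:120361275-120476469, minus strand) was at 77.2, 97.0, 76.2 and 53.8 CPM at E13, at 78.2, 89.0, 77.8 and 88.3 CPM at E17 and at 69.7, 77.7, 59.2 and 66.5 CPM at P1. The E13 and E17 libraries overlapped (0.13 ± 0.16, adjusted p 0.50), with a sign that turned when libraries were scaled by their totals alone (-0.13). The P1 libraries lay just below those of E17 without overlap, but the difference of -0.29 ± 0.16 (adjusted p 0.20) did not pass the test, whereas it passed with limma-voom (adjusted p 0.0024) and with the compared stages alone (0.0374), under 2-fold in both. It then fell to 23.1 ± 2.85 CPM at P5 (-1.57 ± 0.17, adjusted p 1.1e-07) and to 2.80 ± 0.694 CPM at P14 (-3.04 ± 0.19, adjusted p 3.5e-12). From P14 to P24 the libraries overlapped, at 2.80 and 2.71 CPM on average. At P60 the counts were 7, 13, 8 and 10 (0.645 ± 0.207 CPM), a fall of 2.04 ± 0.26 on the log2 scale from P24 (adjusted p 2.6e-06). With Igf2bp3 it was 1 of 2 members lower in this step, in which 3.41% of genes were called lower and 2.55%, Trim71 among them, higher. From E17 to P60 the change was -7.01 ± 0.24 (adjusted p 3.2e-19), which left 0.774% of the E17 level.

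Per length, Hmga1 and Hmga2 were at 10.5 ± 5.04 and 11.2 ± 2.61 RPKM at E13, and their order differed between libraries there. At E17 Hmga2 stood above Hmga1 in every library (12.3 ± 0.907 against 2.68 ± 0.232 RPKM), and at P60 Hmga1 stood above Hmga2 (1.28 ± 0.639 against 0.0953 ± 0.0306 RPKM). The log2 ratio of Hmga2 to Hmga1 was 2.19 ± 0.21 at E17, 0.36 ± 0.38 at P5, -1.70 ± 0.55 at P14 and -3.57 ± 0.84 at P60. It was higher at E17 than at E13 by 1.97 (exact p 0.0286, adjusted 0.0416). It was lower at P5 than at P1, at P14 than at P5 and at P60 than at P24 (each exact p 0.0286, adjusted 0.0416). It did not pass between E17 and P1 (exact p 0.20) or between P14 and P24 (exact p 0.60).

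**Figure D4:**
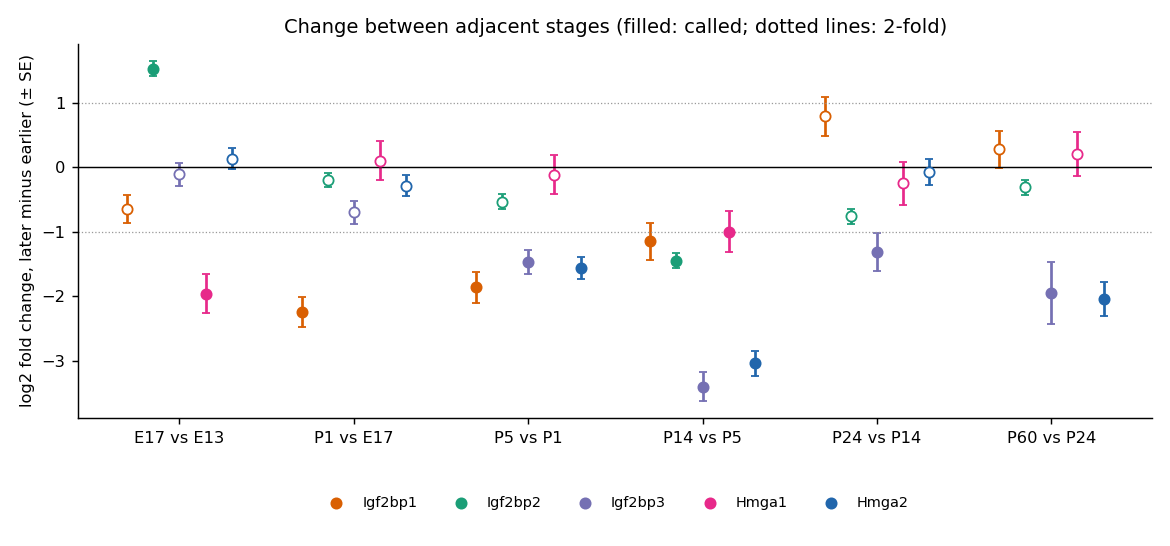
Log2 fold change ± SE (y, later minus earlier) of Igf2bp1, Igf2bp2, Igf2bp3, Hmga1 and Hmga2 between adjacent stages (x), from the edgeR fit over all 28 libraries, with filled points for called changes and dotted lines at 2-fold. The changes of Igf2bp3 (-3.40) and Hmga2 (-3.04) from P5 to P14 lie lowest, and that of Igf2bp2 from E13 to E17 (1.53) highest.

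From P5 to P14 Igf2bp1, Igf2bp2, Igf2bp3, Hmga1 and Hmga2 were all called lower, among 4.91% of genes. The call of Hmga1, at the 2-fold minimum, was lost in 6 of 12 alternative fits that left out no P5 or P14 library, at changes of -0.98 to -1.18 over the 12, and without P5 replicate 1 neither Hmga1 nor Igf2bp1 was called. Between P1 and P60 the same 5 genes were called lower, among 15.2% of genes, by -1.95 ± 0.26 (Igf2bp1), -3.06 ± 0.13 (Igf2bp2), -8.13 ± 0.32 (Igf2bp3), -1.16 ± 0.32 (Hmga1) and -6.72 ± 0.24 (Hmga2). In the test of all stages together each of the 8 genes had an adjusted p under 0.05, as did 88.8% of all genes. For Lin28a, Lin28b and Trim71 this adds nothing, since only embryonic libraries of theirs passed the filter on low counts. For the 5 Igf2bp and Hmga genes, which had counts in all 28 libraries, the median log2 change was -0.11 from E13 to E17, -0.29 from E17 to P1 and -1.47 from P1 to P5. The step to P14 had a median of -1.45, the step to P24 one of -0.25 and the last step to P60 one of -0.31, and over the whole span from E17 to P60 it was -4.20. The median over all genes was -0.0815 from E13 to E17 and between -0.0218 and 0.0004 in the other comparisons.

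A list of 10 markers of proliferating cells also moved along the stages. Their summed level was 654 ± 76.7 CPM at E13 and peaked in the E17 libraries at 2873 ± 30.7 CPM. It was 1456 ± 232 CPM at P1, 176 ± 28.7 CPM at P14 and 8.74 ± 1.14 CPM in the adult at P60. All 10 were called lower from P5 to P14 (4.91% of all genes) and from E17 to P60 (17.5%). Of the E17 level, 27.6% of the marker sum was left at P5, against 27.7% for Hmga2 and 22.3% for Igf2bp3, and 6.11% was left at P14, against 3.36% and 2.12%. From E13 to E17, 9 of the 10 markers were called higher (14.2% of all genes) while Hmga2 and Igf2bp3 were not called, and between P14 and P24 the marker sum went to 2.37% of its E17 level while Hmga2 was at 3.36% and 3.25% and Igf2bp3 went from 2.12% to 0.793%. Of 6 genes listed as cartilage markers 4 could be tested, and 3 of these were called lower from P5 to P14 (4.91% of all genes). The sum of the 6 was 71.9 to 83.6 CPM in the P5 libraries and 8.33 to 10.6 CPM at P14. Most of it at P5 was Col2a1 (59.2 CPM), which the authors use to mark endoneurial fibroblast-like cells, so the sum does not show cartilage. At P5 Col9a1 was at 15.3 CPM, Acan at 1.88 CPM, and Matn1, Matn3 and Comp at 0.021, 0.077 and 0.084 CPM. The part of proliferation and of cells that carry these 6 genes in the falls of the members was not tested.

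**Figure D5:**
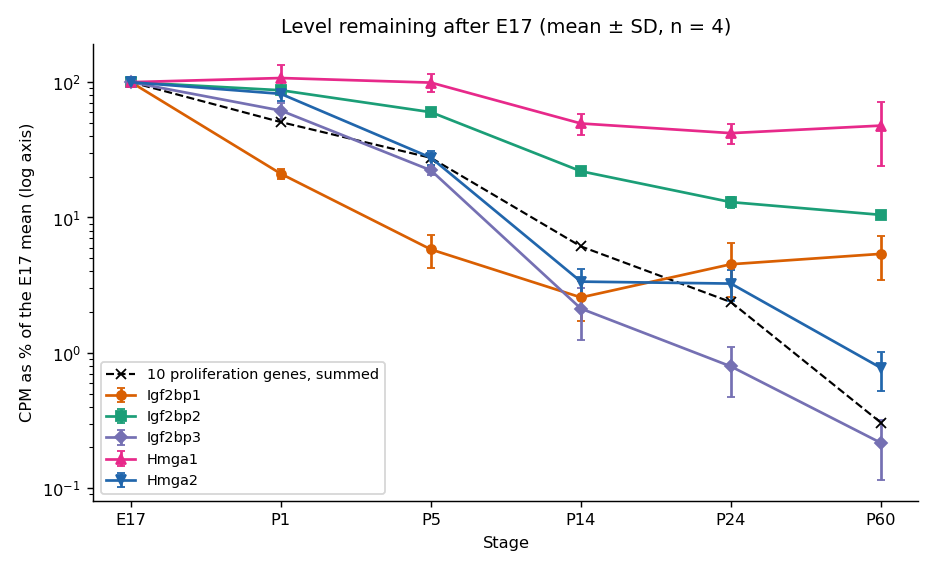
CPM at each stage from E17 to P60 (x) as a percentage of the E17 mean (y, log axis) for Igf2bp1, Igf2bp2, Igf2bp3, Hmga1 and Hmga2, as mean ± SD over 4 libraries, with the sum of 10 proliferation markers as a dashed line. At P60, 47.8% of Hmga1, 10.5% of Igf2bp2, 5.39% of Igf2bp1, 0.774% of Hmga2 and 0.216% of Igf2bp3 was left.

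RNA levels of other sets of marker genes changed as well between E13 and E17. Besides the neuronal and Schwann markers given above, 7 erythroid markers summed to 4164 to 25170 CPM in the E13 libraries and to 151 to 379 CPM at E17, 7 skeletal muscle markers to 28.6 to 658 CPM and 6.50 to 23.4 CPM, and 6 markers of fibroblasts and endoneurial mesenchyme to 1978 to 3554 CPM and 20380 to 22370 CPM. The sum of 5 macrophage markers was 179 to 312 CPM at E13 and 85.4 to 96.8 CPM at E17. Their part in the falls of Lin28a, Lin28b, Trim71 and Hmga1 and in the rise of Igf2bp2 from E13 to E17 was not tested. Of 5 adipocyte markers 4 could be tested, and 3 of these were called higher from E17 to P60 (22.2% of all genes). Their sum was at most 0.314 CPM in the E17 libraries, 1.41 to 68.98 CPM at P14 and 41.5 to 104 CPM at P60, and its part in the later falls was not tested. From E17 on the mean of the mesenchyme sum went from 21290 CPM to 5932 CPM at P60, but its members did not move as one. The extracellular matrix genes Col3a1 (-3.29), Col1a1 (-2.37) and Postn (-5.70), which make up most of the E17 sum, were lower, the proteoglycan genes Dcn (2.91) and Lum (1.22) were higher, and Pdgfra changed by 0.51 (adjusted p 0.0539). The sum of 5 endothelial markers was 291 CPM at E17, 164 CPM at P1 and 384 CPM at P60. Between E17 and P60 its member Cldn5, a tight junction gene, went from 6.60 to 83.1 CPM (3.65). Tie1 (0.68, adjusted p 0.0061) and Pecam1 (0.48, adjusted p 0.0073) were higher by less than 2-fold, while Cdh5 (-0.31, adjusted p 0.0892) and Kdr (-0.22, adjusted p 0.194) did not pass the test.

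Mature let-7 is not measured by these libraries. Of the 8 transcripts that span a let-7 hairpin on the same strand, 1 was called higher at P60 than at E17 (Gm49317, a low-count transcript, 0.0785 to 1.61 CPM) and 1 lower (Wdr82, a protein-coding gene, by -1.04), with a median of 0.31 against 0.00 over all genes. Huwe1, whose gene holds Mir98 and Mirlet7f-2, was at 564 CPM at E17 and 529 CPM at P60. Of 14 genes of microRNA processing and of the let-7 pathway, 3 were called between E17 and P60, all lower, where 17.5% of all genes were lower and 22.2% higher. These were Hnrnpa1, an RNA-binding protein (-2.11, from 505 to 117 CPM), Dgcr8, the partner of Drosha in cutting primary microRNAs (-1.10), and Tut4, a uridylating enzyme that LIN28A recruits to let-7 precursors (-1.06, from 70.8 to 34.1 CPM), the last named after its values were seen.

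Of 21 further genes known as let-7 targets, 12 were lower at P60 than at E17 and 1 was higher, with a median change of -1.17, against 17.5% and 22.2% of all genes. From E13 to E17, 3 of them were lower and 4 higher (median 0.094), against 21.2% and 14.2% of all genes. The 2 largest falls were those of the cell cycle factors E2f2 (-5.14, from 22.6 to 0.635 CPM) and Cdk6 (-3.91, from 260 to 17.3 CPM), of which Cdk6 had been at 38.2 CPM at E13. From P5 to P14, 2 of the 21 were lower (4.91% of all genes). Counted by sequence alone, and with the 8 genes left out, 9 of 24 genes with 3 or more seed matches were lower at P60 than at E17 (37.5%) and 5 higher (20.8%), with a median of -0.32. Of 188 genes with 2 or more, 23.9% were lower and 21.3% higher, and of 13447 genes without a match 16.9% and 22.1%. From E13 to E17 the order was another: 16.7% of the genes with 3 or more matches were lower and 25.0% higher (median 0.067), against 21.4% and 13.9% of those without a match. Their 3′ UTRs differ in length, with medians of 4461, 3605 and 1078 nt. Nr6a1 had the most matches, 8, and changed by -0.28 (adjusted p 0.14).

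Of 11 RNAs known to be bound by IGF2BP proteins, 3 were lower at P60 than at E17 and 1 was higher, with a median of -0.42, against 17.5% and 22.2% of all genes and a median of 0.00. H19, an imprinted noncoding RNA, and Igf2, which encodes insulin-like growth factor 2, had the largest falls (-5.07 and -4.12). Igf2 was at 1347 CPM at E13, 1061 CPM at E17, 783 CPM at P1 and 928 CPM at P5. Its highest mean was at P14 (1668 CPM), and it was at 775 CPM at P24 and 60.8 CPM at P60. H19 was at 1146, 576 and 45.2 CPM at P14, P24 and P60. Over these 3 stages Igf2bp2 went from 61.7 to 29.4 CPM and Igf2bp3 from 1.36 to 0.138 CPM. The adhesion receptor Cd44 was lower by -1.63, and Mapk4 was higher by 2.26 at under 1 CPM, both named after their values were seen.

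Of 9 genes linked to HMGA proteins, 3 were lower and 3 higher from E17 to P60, again against 17.5% and 22.2% of all genes. The cyclins Ccna2 (-7.92) and Ccnb2 (-6.76) and the transcription factor E2f1 (-4.28), all of which act in dividing cells, were lower. Junb, a subunit of the AP-1 factor (3.74, from 0.491 to 6.57 CPM), Cdkn2a, an inhibitor of the cell cycle (2.43, at 1.45 CPM at P60), and Snai1 (1.18) were higher. E2f1, Cdkn2a and Snai1 were named after their values were seen. Of 7 other high mobility group genes, 6 were called between E17 and P60, all lower (17.5% of all genes), with a median of -1.59, and the largest falls were those of Hmgb2 (-4.16, from 185 to 10.4 CPM) and Hmgn2 (-2.77, from 252 to 36.9 CPM).

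Of 7 other genes known as oncofetal, 6 passed the filter and 3 were lower at P60 than at E17, as were 17.5% of all genes. Mest, an imprinted gene, changed by -7.04 (776 to 5.93 CPM), Dlk1, an imprinted Notch-like ligand, by -6.685 (220 to 2.11 CPM), and the surface protein gene Tpbg, named after its values were seen, by -3.96. Gpc3, a proteoglycan of the cell surface, was at 395 CPM at E17 and 466 CPM at P60 (0.24, adjusted p 0.20). Afp, the alpha-fetoprotein gene, was at 0.128 CPM at E13 and had too few counts to be tested.

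Among 15172 protein-coding genes tested, the genes most like each member were taken by Pearson's r of log2 CPM over the 28 libraries, which share their stages and scaling, so that r is a description. The closest to Hmga2 was Igf2bp3 (r = 0.982), followed by the replication gene Mcm10 (0.977). Those closest to Igf2bp3 were Grb10 (0.989), an imprinted adaptor of growth factor receptors, Lmnb1 (0.988), a nuclear lamina gene, and Ccne1 (0.985), a cyclin. Igf2bp2 was most like Mastl (0.981), Ppp4r1 (0.977) and Id2 (0.977), and Igf2bp1 like Syt7 (0.969), St3gal1 (0.964) and Dlx1 (0.959). Hmga1 was most like Ciapin1 (0.964), Zc3hc1 (0.956) and the ribosomal protein gene Rps7 (0.945).

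For the genes read mostly at E13, likeness rests on the 4 E13 libraries. Lin28a was most like Irx1 (0.996), Lor (0.994) and Wnt3a (0.992), Lin28b like Cdh18 (0.974), Gabra5 (0.972) and Insrr (0.971), and Trim71 like Methig1 (0.961), Higd1c (0.947) and Map2 (0.947), a gene of neuronal processes that was at 359 CPM at E13 and 36.0 CPM at E17. Among the members, Lin28a and Lin28b had r = 0.907 and Lin28b and Trim71 0.891, while Igf2bp2 had 0.015 with Lin28a and 0.188 with Trim71.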

How the data were processed

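The authors prepared stranded poly-A libraries, aligned single-end reads with STAR (2.6.1c) and counted reads per gene with featureCounts, and the deposited values are raw counts per gene. The labels name the build GRCm38.p5, while the methods name a human build. Strand and multi-mapping settings of the counting are not given in the sources used here. Of 41605 identifiers, 41519 (99.79%) matched GENCODE M21 (GRCm38), which gave symbols, coordinates, exon lengths and 3′ UTRs.

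Counts were tested with edgeR's quasi-likelihood method (edgeR 4.0.16 under R 4.3.3) over the 28 libraries, with TMM scaling, the stage as the only term and genes kept by filterByExpr (17700). A gene was called at a Benjamini-Hochberg adjusted p under 0.05 over all genes tested and a fold of at least 2. The adjacent pairs, P60 against E17 and P1, and all stages together were tested. All 8 members are named, with, per list, the 2 largest rises and falls among called genes of at least 5 CPM and, per member, the 3 genes most correlated with it, except that 2 genes these rules name are not reported here. Ratios (counts plus 0.5, per kilobase) were tested where both genes had at least 20 pooled counts in each stage. Transcripts spanning let-7 hairpins were picked by coordinates after the table was seen. Members and lists were chosen with earlier results of these data known. Total counts were 13899895 to 37662780 per library, and intervals and limits on 0 counts cover counting error only. No 2 libraries held identical counts (chi-square per degree of freedom 5.21 to 293 over 42 replicate pairs). Alternatives included DESeq2 1.42.0 and limma-voom (limma 3.58.1). On simulated data for P60 against E17 with 17148 genes, 22, 48, 50 and 50 of 50 genes changed 2-, 4-, 8- and 16-fold were called, with 6 false calls. The changed genes were drawn from those with a mean over 5 CPM. The simulation therefore does not show how often changes of low-count genes such as Lin28a, Lin28b and Trim71 would be called.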

Additional observations from a re-analysis of the deposited data

Results flagged for a closer look

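In the 4 E17 libraries, Hmga1 was at 4.96 CPM in replicate 4 and between 5.91 and 5.99 CPM in the others, so that the gap from replicate 4 to its nearest neighbour took up 0.925 of the whole range, above Dixon's critical value at 95%. This was 1 of 56 groups of 4 libraries looked at, and chance alone gives about 1 in 20.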

How the results depend on the processing

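Over 46 results and 904 values under alternatives, 868 kept their direction and their side of the adjusted p of 0.05, 11 no longer passed it, 17 newly passed it and 8 changed sign. With the 2-fold minimum included, 25 of 569 calls were lost, which were Hmga1 (11) and Igf2bp1 (2) from P5 to P14, Trim71 from P24 to P60 (9), Igf2bp3 from P14 to P24 (1) and Hmga1 from E17 and from P1 to P60 (1 each), and 3 of 335 were gained (Trim71 from E17 to P60). Lin28b after E17, with 14 pooled counts or fewer, is not among these 46 results. The counts of genes called moved by at least 1.5 times in a few cases. Without the E13 libraries, or with the compared stages alone, 1 of the 8 genes was called from E17 to P1 in place of 2, because Trim71 was then not tested. It was 3 with the GC trend removed (also with the block), without E13 replicates 1 and 4, with DESeq2 and with limma-voom, each through Lin28b, and with no fold minimum, through Igf2bp3. With the compared stages alone the count was 0 from P14 to P24 (Igf2bp3 at -1.33, adjusted p 0.058) and 1 from P24 to P60 (Hmga2, with Igf2bp3 and Trim71 not tested). With no fold minimum it was 2 from P14 to P24. Without the E13 libraries 5 genes were tested and changed along the timeline. Leaving out 1 library at a time gave 5 to 5 calls from E13 to E17, 2 to 2 from E17 to P1, 3 to 3 from P1 to P5, 3 to 5 from P5 to P14 (3 without P5 replicate 1), 1 to 1 from P14 to P24, 2 to 2 from P24 to P60, 4 to 6 from E17 to P60 and 4 to 5 from P1 to P60. The call of Hmga1 from P1 to P60 was under 2-fold without P60 replicate 1 (-0.89).

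The values that changed sign were those of steps not called. They were Hmga1 from E17 to P1 (-0.02 with library totals alone), Hmga1 from P24 to P60 (-0.11 without P60 replicate 4, to 0.47 without P60 replicate 1), Hmga2 from E13 to E17 (-0.13 with library totals alone, -0.05 without E13 replicates 1 and 4, -0.00 without E13 replicate 4, up to 0.24 without E13 replicate 2) and Hmga2 from P14 to P24 (0.02 without P14 replicate 2 or 4, 0.01 without P24 replicate 4, down to -0.24 without P24 replicate 1). Scaling by library totals alone moved the median of all genes to -0.33 from E13 to E17 and to -0.31 from E17 to P60. Genes with 1 or more or 3 or more let-7 seed matches had medians of -0.082 and -0.32 from E17 to P60.

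Replicate numbers were not treated as pairs in the main fit. Of 84 pairs of libraries with the same number, 33 had deviations correlated above 0.1 (median 0.08, range -0.20 to 0.57). Pairs of unlike number were not compared, so this cannot tell whether the numbers pair the libraries. With the replicate number as a block, 5, 2, 3, 5, 1 and 3 genes were called in the 6 adjacent steps, as without it, and from E17 to P60 it was 6 in place of 5, with Lin28b added (adjusted p 0.0461). From E17 to P60 the count was also 6 with the GC trend removed, without E13 replicates 1 and 4 and with DESeq2, again through Lin28b, and 7 with limma-voom and with library totals alone, through Lin28b and Trim71. From P5 to P14 it was 4, without Hmga1, with DESeq2 or its size factors, with a minimum of 1 CPM in at least 4 libraries, without E13 replicates 1 and 4, without the E13 libraries and with the compared stages alone. Depth limits Lin28a, Lin28b and Trim71 after E17, and Igf2bp3 at P60, to a few counts per stage.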
